A study of Mus musculus with 10 samples.

Results

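The epithelial sodium channel ENaC and its aldosterone-responsive partners were examined in kidney cortex from diabetic and non-diabetic mice. The set was chosen by name, as the genes for the 3 channel subunits (Scnn1a, Scnn1b, Scnn1g), the kinase and ligase that control the channel (Sgk1, Nedd4l), the mineralocorticoid receptor and the enzyme that protects it (Nr3c2, Hsd11b2), and 3 other distal transport genes (Slc12a3, Kcnj1, Klk1). Of these 10 genes 9 were matched by Entrez ID among the 16475 genes measured, and Nr3c2 was not analysed here. Each of 10 mice, all 24 weeks old and on the BKS background, gave 1 Affymetrix expression array from cortex deprived of glomeruli. Of the mice 5 were diabetic db/db animals, homozygous for the leptin receptor mutation, and 5 were non-diabetic db/m littermates. No treatment was given to either group, per the labels, which do not give the sex. Since db/db mice lack the long form of the receptor in every tissue and become obese as well as diabetic, effects of genotype, obesity and diabetes cannot be told apart in this comparison. Values are log2 expression levels, changes are db/db minus db/m with their standard error, and a gene was called at an adjusted p under 0.05 in limma over all genes. The series title asks how metabolism changes in tissues with diabetic complications, and the comparison here asks what happened to the distal sodium transport genes in such a tissue.

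In the last part of the nephron, sodium enters principal cells through ENaC, a channel built from alpha, beta and gamma subunits, and leaves through the sodium pump on the other side. Aldosterone acts on the mineralocorticoid receptor, which raises the kinase Sgk1. Sgk1 phosphorylates the ubiquitin ligase Nedd4-2, the product of Nedd4l, and so keeps more channels at the cell surface. Hsd11b2 inactivates glucocorticoids in these cells, leaving the receptor to aldosterone. Upstream, in the distal convoluted tubule, the thiazide-sensitive cotransporter NCC, the product of Slc12a3, takes up sodium with chloride under the control of WNK kinases. The potassium channel ROMK, the product of Kcnj1, secretes potassium.

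The arrays had medians of 8.46 to 8.66, and their number limits the precision of every value. One diabetic mouse, db/db 1, stood apart: it correlated with the other arrays at 0.938 to 0.962 across genes. Its tubular injury markers (11 measured) lay at a median of 5.10 above the db/m mean, against 1.68 in db/db 2 and 0.29 to 0.40 in db/db 3 to 5. Its leukocyte markers (9 measured) lay at 2.88 above, against 0.97 in db/db 2 and -0.85 to -0.30 in db/db 3 to 5. In this mouse 49.4% of all genes were below every db/m mouse and 25.1% above every one. The 9 genes and the gene lists are therefore given with all 10 arrays and again without db/db 1, as are the other named genes called in either. Without it the leukocyte list had 0 genes higher and 1 lower (Csf1r, -1.08 ± 0.23, adjusted p = 0.0137, against -0.52 ± 0.54 and 0.630 with all arrays) and the injury list 5 higher and 0 lower (median 0.37), against 0 called (0 also at an unadjusted p under 0.05) and 4 higher with all arrays (medians 0.36 and 1.28).

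In db/db mice 2 to 5 all 3 ENaC subunits, Sgk1 and Slc12a3 lay above every db/m mouse, while in db/db 1 the subunits and Slc12a3 lay below every db/m mouse. With all 10 arrays 1 of the 9 genes rose, Sgk1, and 0 fell by limma, where 2.96% of all genes tested were called higher and 3.54% lower. At an unadjusted p under 0.05 there were 3 of the 9. Without db/db 1, 6 of 9 rose and 0 fell (Scnn1a, Scnn1b, Scnn1g, Sgk1, Hsd11b2 and Slc12a3), where 6.84% of all genes were called higher and 5.93% lower. All 5 db/db mice were above all db/m mice in 1 of the 9 genes, and all below in 0, against 4.35% and 5.85% of all genes; without db/db 1 the counts were 5 and 0, against 7.76% and 7.61%. The median change of the 9 was 0.21 with all arrays and 0.43 without db/db 1, against -0.03 and -0.01 over all genes. In db/db 1 itself 7 of the 9 genes were below every db/m mouse and the other 2, Sgk1 and Nedd4l, were above every one. In bulk tissue, more cells of a type and more RNA per cell cannot be told apart.

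**Figure D1:**
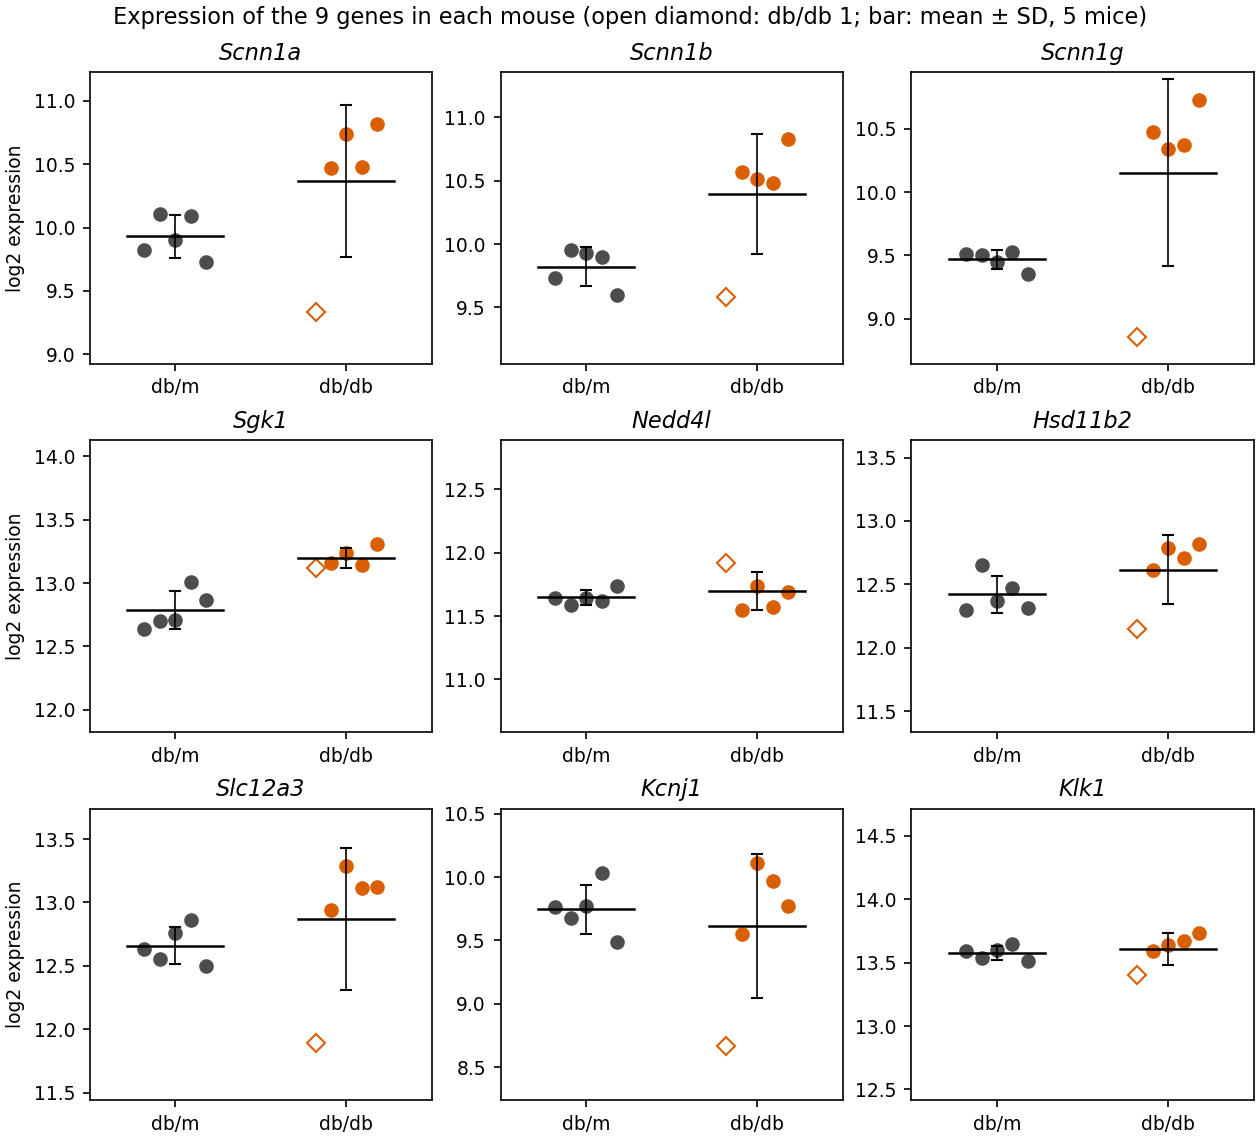
Log2 expression of the 9 genes in each mouse, by group, with every panel spanning the same number of log2 units; lines are means and error bars SDs over 5 mice, and the open diamond is db/db 1. The 3 ENaC subunits separate db/db 2 to 5 from db/m, with db/db 1 on the other side of the db/m mice, while Sgk1 is high in all 5 db/db mice.

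The gamma subunit gene Scnn1g moved most among the 9. Its log2 level was 9.51, 9.50, 9.45, 9.53 and 9.35 in db/m 1 to 5, and 8.86, 10.47, 10.34, 10.37 and 10.73 in db/db 1 to 5. The lowest of db/db 2 to 5 was 0.81 above the highest db/m mouse, and db/db 1 was 0.61 below the db/m mean. With all arrays the change was 0.68 ± 0.30 (1.61-fold, adjusted p = 0.220). Scnn1g rose 2.01-fold without db/db 1 (1.01 ± 0.09, adjusted p = 0.000245) and ranked 34 by p among all genes. This call held in all 9 fits that left out 1 further array, with an adjusted p of at most 0.00135.

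Scnn1b, which encodes the beta subunit, read 9.73, 9.95, 9.93, 9.90 and 9.60 in the db/m mice and 9.58, 10.57, 10.51, 10.48 and 10.83 in the db/db mice. Mouse db/db 1 lay just under the lowest db/m mouse, and the other 4 were at least 0.52 above the highest. The change was 0.57 ± 0.20 with all arrays (1.48-fold, adjusted p = 0.135). The gene rose 1.71-fold without db/db 1 (0.77 ± 0.10, adjusted p = 0.00156), in all 9 further fits as well.

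For the alpha subunit gene Scnn1a, whose product is needed for the channel to reach the membrane, the db/m levels were 9.82, 10.11, 9.90, 10.09 and 9.73. The db/db levels were 9.33, 10.47, 10.74, 10.48 and 10.82, so db/db 1 was again the lowest of the 10 mice and the other 4 the highest. The change was 0.44 ± 0.25 with all arrays (1.36-fold, adjusted p = 0.351), and without db/db 1 Scnn1a rose 1.62-fold (0.70 ± 0.11, adjusted p = 0.00357), in all 9 further fits as well.

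Whether the subunits changed by unequal amounts was tested on their differences within each array. The level of Scnn1b less that of Scnn1g averaged 0.35 ± 0.12 (SD, n = 5) in db/m and 0.12 ± 0.04 (SD, n = 4) in db/db 2 to 5, so the gamma subunit moved further by 0.24 (exact permutation test, two-sided, p = 0.0159, or 0.0476 adjusted over 3 pairs). That p is the smallest that 5 against 4 mice allow. Leaving out a further mouse raises that smallest p, so the adjusted p of 0.0536 to 0.107 in those sets says nothing about stability. In db/db 1 this difference was 0.72, above all 9 other mice. Scnn1g less Scnn1a moved by 0.31 without db/db 1 (exact permutation p = 0.0476, adjusted 0.0714) and Scnn1b less Scnn1a by 0.07 (exact permutation p = 0.381, unchanged by the adjustment). With all 10 arrays the 3 differences were -0.12, 0.25 and 0.13, with adjusted exact permutation p of 0.405, 0.238 and 0.286.

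Scnn1g and Scnn1b are neighbours on chromosome 7 of GRCm38.p6, at 121734420 to 121768482 and 121865038 to 121918728, with 96.6 kb between them, whereas Scnn1a lies on chromosome 6 at 125314271 to 125344943. The sequences just before the starts of the pair are shown because these genes are neighbours, read from RefSeq on GRCm38.p6 (plus strand). RefSeq promoter windows were matched for 6 of the 9 genes. Capitals mark GGGCGG, the GC box, on either strand, which 32.7% of the 32851 RefSeq windows of 250 bases before a start hold. The Scnn1g stretch is chr7:121734229-121734419 and ends where the annotated gene begins; the Scnn1b stretch is chr7:121864788-121865037.
Scnn1g: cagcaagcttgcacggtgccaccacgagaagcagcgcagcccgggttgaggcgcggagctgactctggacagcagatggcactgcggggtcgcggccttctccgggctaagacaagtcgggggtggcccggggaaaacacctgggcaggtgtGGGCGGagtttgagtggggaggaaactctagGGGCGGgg
Scnn1b: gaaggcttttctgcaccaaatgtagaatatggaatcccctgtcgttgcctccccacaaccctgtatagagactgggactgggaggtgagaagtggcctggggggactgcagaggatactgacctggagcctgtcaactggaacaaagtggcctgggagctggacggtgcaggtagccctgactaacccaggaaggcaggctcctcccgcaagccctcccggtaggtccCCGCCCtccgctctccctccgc
The Scnn1g window held the GC box 98 and 67 bases before its RefSeq transcript start, which lies inside the annotated gene, and the Scnn1b window 22 bases before its start. Neither window held TGTTCT, a single arm of the steroid receptor element, on either strand, and 16.1% of all windows hold it.

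Sgk1, the kinase that protects the channel from removal, was high in every diabetic mouse. Its level was 12.64, 12.70, 12.71, 13.01 and 12.87 in db/m 1 to 5 and 13.12, 13.16, 13.24, 13.14 and 13.31 in db/db 1 to 5. The groups did not overlap, and db/db 1 stood with its group. Sgk1 rose 1.33-fold with all arrays (0.41 ± 0.08, adjusted p = 0.0201) and 1.34-fold without db/db 1 (0.43 ± 0.09, adjusted p = 0.0112). With all arrays the call was lost without db/m 3 (adjusted p = 0.0630) and with each array centred on its median (0.34, adjusted p = 0.0714), and without db/db 1 it held under both.

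Sgk1 lies on chromosome 10 at 21882184 to 21999903, and RefSeq gives it 6 promoter windows. One of them, chr10:21993640-21993889 on the plus strand, held the palindromic receptor element AGAACANNNTGTTCT that glucocorticoid and mineralocorticoid receptors bind, 189 bases before that start. The window is shown because 3 of the 32851 windows (0.00913%) hold a match, searched on both strands. Capitals mark the element, which includes TGTTCT on each strand, and 1 GC box; a further TGTTCT 242 bases before the start is in lower case.
Sgk1: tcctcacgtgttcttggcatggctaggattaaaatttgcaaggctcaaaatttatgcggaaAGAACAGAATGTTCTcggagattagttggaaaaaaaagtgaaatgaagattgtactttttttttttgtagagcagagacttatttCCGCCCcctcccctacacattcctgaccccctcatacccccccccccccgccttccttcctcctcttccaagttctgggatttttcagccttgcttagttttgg
The deposited value is 1 per gene, so it does not tell which start the measured Sgk1 RNA came from.

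Nedd4l, the ligase that Sgk1 restrains, did not pass in either fit. Its level ran from 11.59 to 11.74 in db/m and from 11.55 to 11.74 in db/db 2 to 5, so these mice overlapped fully, while db/db 1 was the highest of all at 11.92. The change was 0.05 ± 0.08 (adjusted p = 0.784), or -0.01 ± 0.06 without db/db 1 (adjusted p = 0.952), with a 95% interval of -0.16 to 0.14. Among 15 other genes of channel ubiquitination and kinase signalling 0 rose and 1 fell in both fits, with a median change of 0.04 in each. Called lower among all genes were 3.54% with all arrays and 5.93% without db/db 1. This count does not set the list apart. The gene that fell was Mtor, the kinase of the complexes that activate Sgk1 and drive growth (-0.44 ± 0.11, adjusted p = 0.0383; without db/db 1 -0.35 ± 0.08, adjusted p = 0.0181). With all arrays the Mtor call was lost without db/m 1, 3, 4 or 5 or db/db 2, 3 or 4, with adjusted p up to 0.101. The close relative Nedd4 was at 0.18 (adjusted p = 0.172).

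**Figure D2:**
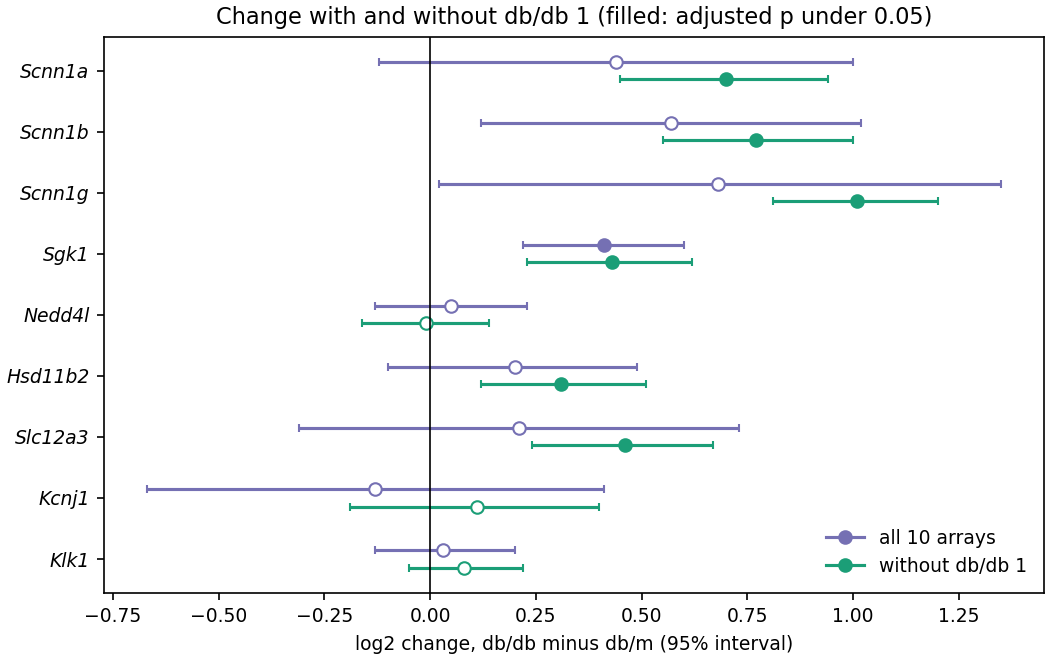
Log2 change, db/db minus db/m, of the 9 genes with 95% intervals from limma, with all 10 arrays (purple) and without db/db 1 (green); filled points passed the adjusted p threshold. The intervals of the 3 subunits narrow without db/db 1 and move away from 0, while those of Sgk1 and Nedd4l hardly shift.

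Some of the proteases that can cut and open the channel were higher in db/db, and others were not. ENaC is activated when proteases remove inhibitory stretches from the alpha and gamma subunits. Of 10 such proteases and inhibitors 1 rose and 0 fell with all arrays, and omitting db/db 1 gave 4 higher and 0 lower, with medians of 0.13 and 0.10. Over all genes 6.51% were called in the first fit and 12.8% in the second.

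Tmprss4, a membrane serine protease known to activate the channel, read 6.43, 6.61, 6.54, 6.17 and 6.49 in db/m and 9.88, 7.56, 7.43, 7.63 and 7.40 in db/db. All diabetic mice were above all controls, with db/db 1 far above the other 4. The change was 1.53 ± 0.43 with all arrays (adjusted p = 0.0646), and without db/db 1 Tmprss4 rose by 1.06 ± 0.10 (adjusted p = 0.000302). The tubular injury markers were also highest in db/db 1, and their part in this result was not tested.

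St14, the membrane protease matriptase, likewise had no overlap between groups, with 9.79 to 10.20 in db/m, 10.41 to 10.75 in db/db 2 to 5 and 11.83 in db/db 1. It rose without db/db 1 (0.57 ± 0.10, adjusted p = 0.00663) and did not pass with all arrays (0.82 ± 0.24, adjusted p = 0.0738). Plat, the tissue plasminogen activator, rose in both fits (0.55 ± 0.10, adjusted p = 0.0139, and 0.50 ± 0.10, adjusted p = 0.00934). Tmprss2, another membrane protease, rose without db/db 1 by 0.29 ± 0.06 (adjusted p = 0.0180) and was at 0.24 ± 0.07 with all arrays (adjusted p = 0.0801). Prss8, which encodes prostasin, and Furin, which cuts the channel inside the cell, were at 0.00 and 0.02 in that fit (adjusted p = 1 and 0.884). Plau, the urokinase gene, was at -0.38 with all arrays and -0.56 without db/db 1 (adjusted p = 0.591 and 0.368), and Plg, the plasminogen gene, at -0.27 and -0.08 (adjusted p = 0.534 and 0.813).

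Hsd11b2, the enzyme that shields the mineralocorticoid receptor from glucocorticoids, was slightly higher in db/db mice 2 to 5. Its db/m levels were 12.30, 12.65, 12.37, 12.47 and 12.31, and its db/db levels 12.15, 12.61, 12.79, 12.71 and 12.82. The groups overlapped in both fits, since db/db 2 lay below db/m 2. The change was 0.20 ± 0.13 with all arrays (adjusted p = 0.436). Without db/db 1 the gene rose 1.24-fold (0.31 ± 0.09, adjusted p = 0.0429), but this call held in 2 of 9 further leave-one-out fits, those without db/m 2 and without db/db 2, and reached an adjusted p of 0.103 without db/db 3. It was also lost with quantile normalisation repeated (adjusted p = 0.0502) and with arrays centred (0.0664).

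The counterpart enzyme Hsd11b1, which regenerates active glucocorticoid and is known from the proximal tubule and liver, fell in every diabetic mouse. Its level was 12.62, 12.90, 13.11, 13.03 and 12.97 in db/m and 12.15, 11.93, 11.55, 11.88 and 11.96 in db/db, with no overlap and with db/db 1 nearest the controls. The fall was 1.03 on the log2 scale with all arrays (SE 0.12, adjusted p = 0.00181) and 1.09 without db/db 1 (SE 0.12, adjusted p = 0.000639). It held in all 10 leave-one-out fits.

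Of 11 genes for steroid receptors and steroid handling, Hsd11b1 included, 3 fell and 0 rose with all arrays and 4 fell without db/db 1. Their medians were -0.17 and -0.09, and 3.54% and 5.93% of all genes were called lower in these fits. Fkbp4, a co-chaperone of steroid receptors, fell by 0.52 with all arrays (SE 0.13, adjusted p = 0.0465) and by 0.39 without db/db 1 (SE 0.07, adjusted p = 0.00536). With all arrays the Fkbp4 call held in 1 of 10 leave-one-out fits, the one without db/db 1, and was lost with arrays centred (adjusted p = 0.0504). The oxysterol receptor gene Nr1h3 fell in both fits (-0.38 ± 0.08, adjusted p = 0.0190, and -0.41 ± 0.07, adjusted p = 0.00602), in the first not without db/m 3 (adjusted p = 0.0591). The glucocorticoid receptor gene Nr3c1 was at -0.33 ± 0.09 with all arrays (adjusted p = 0.0687) and fell without db/db 1 (-0.26 ± 0.07, adjusted p = 0.0433). Its call held in 1 of 9 further fits, the one without db/m 3, and reached an adjusted p of 0.102 without db/db 2, and it was lost with array weights (0.0893). The aldosterone and corticosterone synthase genes Cyp11b2 and Cyp11b1, made in the adrenal, were dim at 4.05 and 3.66 in db/m, under the lower quartile of all values (5.68).

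Of 15 steroid-induced genes measured 1 rose and 1 fell in both fits, with medians of 0.11 and 0.09. Over all genes 6.51% were called with all arrays and 12.8% without db/db 1, so the count does not set this list apart. Per1, a clock gene that aldosterone and glucocorticoids also induce, rose from 9.17 ± 0.49 in db/m to 10.59 ± 0.10 in db/db 2 to 5 and was 10.28 in db/db 1. Its change was 1.35 ± 0.21 with all arrays (adjusted p = 0.00658) and 1.42 ± 0.22 without db/db 1 (adjusted p = 0.00352), and all 5 db/db mice were above all db/m mice.

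Ndrg2, an early aldosterone target in collecting duct, fell from 11.58 ± 0.23 to 10.62 ± 0.34 in db/db 2 to 5 and was 9.45 in db/db 1. The change was -1.20 ± 0.26 with all arrays (adjusted p = 0.0250), not past the threshold without db/m 3, 4 or 5 or db/db 2 (adjusted p up to 0.0716), and -0.96 ± 0.17 without db/db 1 (adjusted p = 0.00576). Other steroid-induced genes did not pass without db/db 1: Tsc22d3, which encodes GILZ, was at 0.26 (adjusted p = 0.225), Fkbp5 at 0.53 (adjusted p = 0.148) and Zbtb16 at 0.74 (adjusted p = 0.181).

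Slc12a3, the gene for NCC, followed the channel subunits. The db/m levels were 12.63, 12.55, 12.76, 12.86 and 12.50, and the db/db levels 11.89, 12.94, 13.29, 13.11 and 13.12. Mouse db/db 1 was the lowest of the 10, and the other 4 were above every db/m mouse, by 0.08 at the closest. The change was 0.21 ± 0.24 with all arrays (adjusted p = 0.653). Slc12a3 rose 1.37-fold without db/db 1 (0.46 ± 0.10, adjusted p = 0.0140), in all 9 further fits as well, with an adjusted p of at most 0.0406.

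A list of NCC control genes also held the segment marker Calb1 and the growth factor gene Fgf1. Of its 14 genes 0 rose and 1 fell with all arrays, and 3 rose and 1 fell without db/db 1. The medians were -0.07 and 0.05. Among all genes 2.96% were called higher and 3.54% lower with all arrays, and 6.84% and 5.93% without db/db 1. Stk39, which encodes the kinase SPAK that phosphorylates NCC, was at 0.47 ± 0.15 with all arrays (adjusted p = 0.0873) and rose without db/db 1 by 0.56 ± 0.13 (adjusted p = 0.0226). Wnk4, a kinase upstream of SPAK, rose by 0.26 ± 0.06 (adjusted p = 0.0266), and the calcium buffer gene Calb1, a marker of the same segment, by 0.39 ± 0.10 (adjusted p = 0.0313), both without db/db 1. With all arrays Wnk4 was at 0.15 ± 0.11 (adjusted p = 0.493) and Calb1 at 0.15 ± 0.23 (adjusted p = 0.757). The calls of Stk39, Wnk4 and Calb1 held in 5, 4 and 3 of 9 further leave-one-out fits. Each was lost without db/db 3, 4 or 5 or db/m 3, those of Wnk4 and Calb1 also without db/m 5 and that of Calb1 without db/m 1, with adjusted p up to 0.0580, 0.0695 and 0.0823. The Wnk4 call was lost with arrays centred (adjusted p = 0.0587).

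The gene of this list that fell was Fgf1, a fibroblast growth factor gene, from 12.41 ± 0.08 in db/m to 11.51 ± 0.22 in db/db 2 to 5 and 11.44 in db/db 1. The change was -0.91 ± 0.10 with all arrays (adjusted p = 0.000809), in all 10 leave-one-out fits as well, and -0.90 ± 0.10 without db/db 1 (adjusted p = 0.000725). Wnk1 (0.20, adjusted p = 0.317 without db/db 1) and the ligase scaffold gene Cul3 (-0.10, adjusted p = 0.347) did not pass.

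Kcnj1, the gene for the potassium channel ROMK, did not pass in either fit. Its level was 9.76, 9.68, 9.77, 10.03 and 9.49 in db/m and 8.67, 9.55, 10.11, 9.97 and 9.77 in db/db. Only db/db 1 left the db/m range by much, 1.08 below the db/m mean. The change was -0.13 ± 0.24 with all arrays (adjusted p = 0.801) and 0.11 ± 0.13 without db/db 1 (adjusted p = 0.688), so its sign depended on that mouse. The 95% interval without it, -0.19 to 0.40, includes changes as large as those of Hsd11b2.

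Of 12 other potassium and chloride channel genes of the distal nephron 0 were called with all arrays and 2 rose without db/db 1. Their medians were 0.03 and 0.08, and 2.96% and 6.84% of all genes were called higher in these fits. With all arrays 3 of the 12 were at an unadjusted p under 0.05. The pore gene Kcnq1 rose without db/db 1 by 0.64 ± 0.10 (adjusted p = 0.00376), and so did its accessory subunit gene Kcne1, by 0.85 ± 0.11 (adjusted p = 0.00157). With all arrays they were at 0.51 ± 0.15 (adjusted p = 0.0783) and 0.59 ± 0.25 (adjusted p = 0.210). The basolateral channel genes Kcnj10 and Kcnj16 were at 0.29 and 0.04 without db/db 1 (adjusted p = 0.191 and 0.732).

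Klk1, which encodes the tissue kallikrein secreted by connecting tubule cells, was among the bright genes and did not pass in either fit. It lay between 13.51 and 13.65 in db/m, between 13.59 and 13.73 in db/db 2 to 5 and at 13.40 in db/db 1. Its change was 0.03 ± 0.07 (adjusted p = 0.843), or 0.08 ± 0.06 without db/db 1 (adjusted p = 0.418), with a 95% interval of -0.05 to 0.22 in the latter. The highest value of any gene on the arrays was 14.53.

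Relatives of Klk1 in the mouse kallikrein cluster were dimmer, and several rose. Of 11 genes of this cluster and of the kinin receptors 1 rose and 0 fell with all arrays and 5 rose without db/db 1. Their medians were 0.43 and 0.64, and 2.96% and 6.84% of all genes were called higher in these fits. Klk1b5 rose in both fits (0.97 ± 0.14, adjusted p = 0.00415, and 1.01 ± 0.14, adjusted p = 0.00230). Omitting db/db 1, Klk1b27 rose by 1.36 ± 0.24 (adjusted p = 0.00598), Klk1b8 by 0.82 ± 0.16 (adjusted p = 0.00939) and Klk1b24 by 0.70 ± 0.10 (adjusted p = 0.00194). With all arrays these 3 were at 1.08, 0.70 and 0.49 (adjusted p = 0.0854, 0.0501 and 0.207). These genes are near copies of each other and of Klk1, and how far their probes tell them apart was not tested, so which copy changed is uncertain.

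Pump genes and sodium transporters of other segments were counted beside all genes, of which 6.51% were called with all arrays and 12.8% without db/db 1. With lists this short, the counts cannot set these genes apart from all genes. Of 7 pump subunit genes 0 were called in either fit, also at an unadjusted p under 0.05, with medians of 0.00 and -0.01. The pump gene nearest the threshold was Atp1b2 (0.15 ± 0.11, adjusted p = 0.499), and the bright beta subunit gene Atp1b1 was at 0.02 without db/db 1 (adjusted p = 0.820). Among 11 other sodium transporter genes 0 were called with all arrays, with 2 at an unadjusted p under 0.05, and 1 fell without db/db 1, with medians of -0.03 and 0.17. That gene was Slc12a2, a cotransporter of basolateral membranes, which was at -0.44 ± 0.12 with all arrays (adjusted p = 0.0606) and fell by 0.35 without db/db 1 (SE 0.10, adjusted p = 0.0412). Its call held in 2 of 9 further fits, those without db/m 1 and db/m 2, with an adjusted p up to 0.0986 without db/db 5, and was lost with quantile normalisation repeated (0.0516). The thick limb cotransporter gene Slc12a1, the target of loop diuretics, was at -0.06 (adjusted p = 0.840) in that fit and at -0.40 (adjusted p = 0.529) with all arrays.

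**Figure D3:**
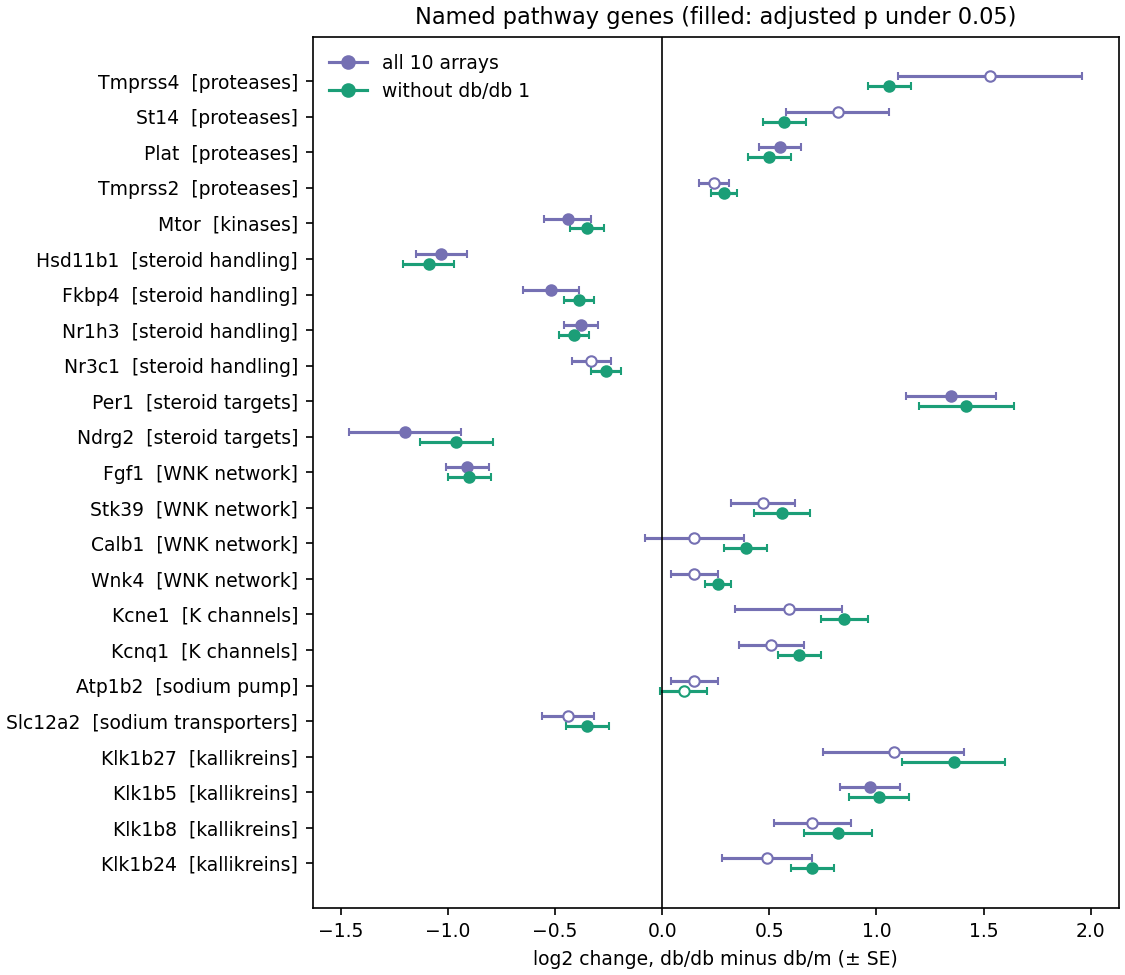
Log2 change, db/db minus db/m, with its standard error for the named genes of the surrounding pathway, with all 10 arrays (purple) and without db/db 1 (green); filled points passed the adjusted p threshold. The proteases and kallikreins drawn were picked because they passed the threshold in either fit, and Prss8, Furin, Plau and Plg are not drawn. Those drawn lie to the right of 0, and Hsd11b1, Fgf1 and Ndrg2 to the left, in both fits.

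Markers of the cells that hold these genes moved the same way in part. Beside the counts of all marker lists, 2.96% of all genes were called higher with all arrays and 6.84% without db/db 1. The shares called lower were 3.54% and 5.93%. Principal cell markers were higher in 3 of 9 genes without db/db 1 (Aqp2, Gata3 and Kcne1), with a median of 0.26. With all arrays 0 of 9 were called, 3 had an unadjusted p under 0.05 and the median was -0.08. Kcne1 was also counted among the potassium and chloride channel genes. Aqp2, the vasopressin-regulated water channel, rose by 0.57 ± 0.10 without db/db 1 (adjusted p = 0.00611) and was at 0.39 ± 0.18 with all arrays (adjusted p = 0.248). In the same fits Gata3, a transcription factor gene of the duct, rose by 0.57 ± 0.13 (adjusted p = 0.0183, or 0.0507 without db/db 3) and was at 0.47 ± 0.15 (adjusted p = 0.0930), while Fxyd4, a pump regulator of the same cells, was at -0.09 in both (adjusted p = 0.537 and 0.563).

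Array by array, the median deviation of the 3 ENaC subunits from the db/m mean was 0.74, 0.81, 0.65 and 1.01 in db/db 2 to 5 and -0.60 in db/db 1. For principal cell markers it was 0.12, 0.34, 0.28 and 0.20, and -0.31. In db/m the subunits ranged from -0.20 to 0.13 and the markers from -0.10 to 0.18. The marker value of db/db 2 thus lay within the db/m range. The summed principal cell level, as log2, was 13.70 to 13.92 in db/m, 13.95 to 14.09 in db/db 2 to 5 and 13.67 in db/db 1. Subunits and markers thus had the same sign in each of the 5 diabetic mice, with the larger size for the subunits, and the part of the markers in the ENaC result was not tested.

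Connecting tubule markers rose in 3 of 5 genes without db/db 1 (Slc8a1, Calb1 and Pvalb, median 0.30), of which Pvalb is also in the distal convoluted tubule list and is mainly known from that segment, and in 0 with all arrays, where 0 had an unadjusted p under 0.05 and the median was 0.02. Their summed level was 14.83 to 15.04 in db/m, 15.08 to 15.19 in db/db 2 to 5 and 14.23 in db/db 1. The sodium-calcium exchanger gene Slc8a1 rose by 1.23 ± 0.17 without db/db 1 (adjusted p = 0.00199), against 0.64 ± 0.55 with all arrays (adjusted p = 0.548), and was at 5.96 in that mouse, against 7.68 ± 0.35 in db/m.

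Distal convoluted tubule markers rose in 2 of 8 genes without db/db 1 and 1 of 8 with all arrays, with medians of 0.13 and -0.06 and summed levels of 14.31 to 14.43 in db/m, 14.40 to 14.54 in db/db 2 to 5 and 12.52 in db/db 1. Pvalb, which marks the early part of this segment beside Slc12a3, was at 12.61 ± 0.10 in db/m, 12.91 ± 0.06 in db/db 2 to 5 and 7.66 in db/db 1. With all arrays its change was -0.75 ± 0.93 (adjusted p = 0.686), of the other sign. Its rise without db/db 1 (0.30 ± 0.07, adjusted p = 0.0219) was lost without db/m 3 or db/db 3, 4 or 5 (adjusted p up to 0.0602). The magnesium channel gene Trpm6 rose in both fits (0.60 ± 0.14, adjusted p = 0.0356, and 0.66 ± 0.14, adjusted p = 0.0148), with all arrays not under quantile normalisation (adjusted p = 0.0751) or centring (0.0612), nor without db/m 1, 3, 4 or 5 or db/db 3, 4 or 5 (adjusted p up to 0.0965).

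Intercalated cell markers rose in 4 of 10 genes without db/db 1 (median 0.36) and in 1 of 10 with all arrays (median 0.09). Their summed level was 13.63 to 14.00 in db/m, 14.02 to 14.41 in db/db 2 to 5 and 12.82 in db/db 1. Aqp6, a channel of their vesicles, rose in both fits (1.02 ± 0.19, adjusted p = 0.0140, and 1.21 ± 0.10, adjusted p = 0.000217). Aqp6 was at 9.87 in db/db 1, against at most 9.75 in db/m. In db/db 1, however, 8 of the 10 markers were below every db/m mouse. Slc4a1 was at 6.51 in db/db 1, against 9.55 ± 0.21 in db/m. Its change was 0.93 ± 0.16 without db/db 1 (adjusted p = 0.00589) and 0.13 ± 0.72 with all arrays (adjusted p = 0.935).

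In the thick ascending limb list 0 of 8 rose and 1 fell in both fits (Cldn10, a claudin gene, -0.23 ± 0.06, adjusted p = 0.0433, and -0.22 ± 0.06, adjusted p = 0.0322; the first called in 1 of 10 leave-one-out fits, the one without db/db 1, up to 0.125, the second in 2 of 9, those without db/m 1 and db/m 2, up to 0.0872), with medians of -0.19 and -0.07 and array medians of -0.19 to 0.17 around the db/m mean in db/db 2 to 5. Of 11 proximal tubule markers 0 were called with all arrays, with 0 at an unadjusted p under 0.05, and 1 rose without db/db 1 (Slc22a8, an organic anion transporter gene, 0.83 ± 0.10, adjusted p = 0.00119, against 0.40 ± 0.40 and 0.617 with all arrays), with medians of -0.04 and 0.06. The podocyte list rose in 5 of 7 genes with all arrays and in all 7 without db/db 1, with medians of 0.58 and 0.56, although the tissue had been deprived of glomeruli; with arrays centred the first count was 3 of 7. Of 8 endothelial markers 0 were called with all arrays (2 at an unadjusted p under 0.05) and Pecam1 rose without db/db 1 (0.25 ± 0.07, adjusted p = 0.0469, against 0.29 ± 0.08 and 0.0546 with all arrays; called in 1 of 9 further fits, the one without db/m 2, and not with quantile normalisation repeated, 0.0759, centring, 0.0748, or trend and robust settings, 0.0963), with medians of 0.09 and 0.13. Inner medulla and loop markers had 0 of 5 called in either fit, also at an unadjusted p under 0.05 (medians -0.03 and 0.01). Of 8 adrenal cortex markers, a check on stray steroid-making tissue, 5 were under the lower quartile of all values. In that list 0 were called with all arrays (1 at an unadjusted p under 0.05) and Hsd3b1, a steroid dehydrogenase gene, rose without db/db 1 (1.52 ± 0.21, adjusted p = 0.00187, against 1.05 ± 0.46 and 0.218 with all arrays), with medians of -0.03 and 0.02. Hsd3b1 was itself dim, at 5.71 ± 0.28 in db/m, near that quartile (5.68). It was at 7.23 ± 0.44 in db/db 2 to 5 and 4.89 in db/db 1.

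**Figure D4:**
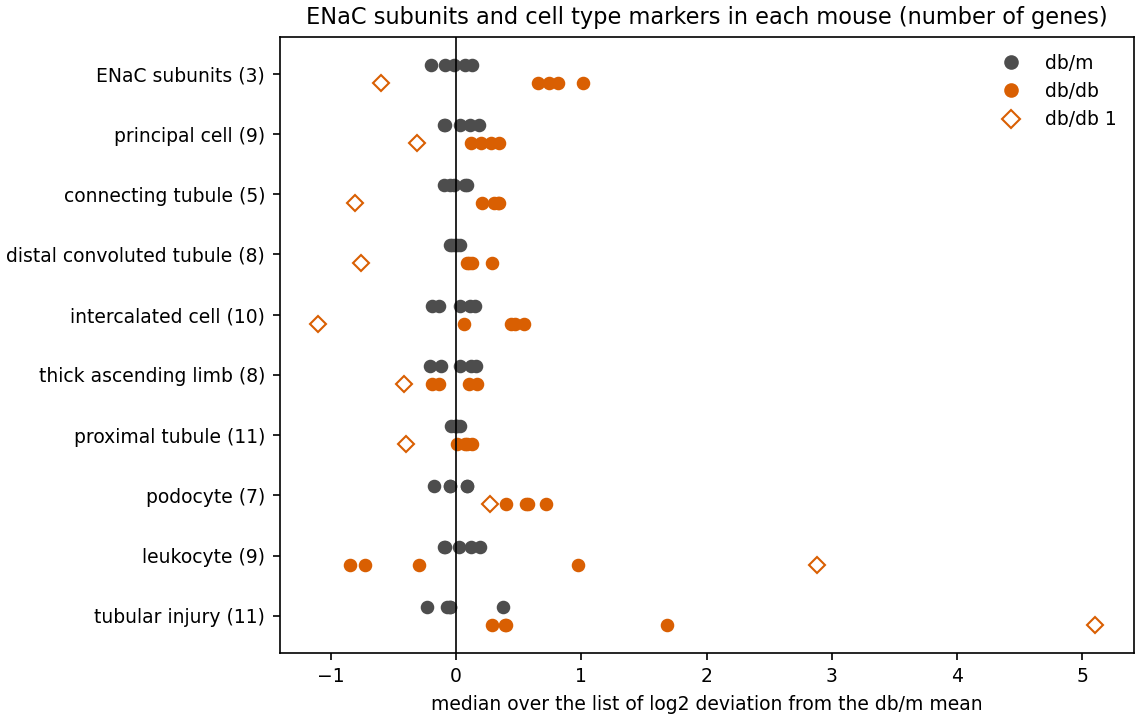
Median log2 deviation from the db/m mean over the 3 ENaC subunits and over each list of cell type markers, 1 point per mouse; grey is db/m, orange db/db and the open diamond db/db 1. The subunits and the distal lists are above 0 in db/db 2 to 5 and below 0 in db/db 1, where leukocyte and injury markers are at their highest. The proximal tubule list has the same signs, at 0.01 to 0.13 in db/db 2 to 5 and -0.40 in db/db 1.

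The genes whose profiles over the 10 mice lay closest to Sgk1 and Scnn1b, the 2 of the 9 genes with the lowest p with all arrays, were found by the root mean square difference of log2 deviations from the db/m mean. For Scnn1b they were Klk1b24 (0.122), Kcne1 (0.123) and Myom2 (0.135), whose mean deviations in db/db 2 to 5 were 0.70, 0.85 and 0.70 against 0.77 for Scnn1b. All 3 were below the db/m mean in db/db 1, by -0.35, -0.44 and -0.33 against -0.24. For Sgk1 they were Tanc1 (0.0569), Dkk3 (0.0914) and Tacc1 (0.0942), which like Sgk1 were above the db/m mean in db/db 1 too. These points share the 10 arrays and with them the departure of db/db 1.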

How the data were processed

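Expression was measured on 10 arrays, 1 per mouse, 5 db/db and 5 db/m, grouped by their titles. Log2 values were deposited by the authors after RMA summarisation, as the submitters' processing notes state. How probes were grouped by gene is not stated there. The table held 1 value per Entrez Gene ID and 64 control rows, which were left out, leaving 16475 genes, of which 15780 had 1 symbol, 0 several and 695 none. Values were used as deposited, with no filter on dim genes, and arrays give no counts.

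The fits used limma 3.58.1 under R 4.3.3 (lmFit, eBayes, two-sided, Benjamini-Hochberg over all genes, threshold 0.05), with all 10 arrays and without db/db 1. Differences between subunits were tested by exact permutation (SciPy 1.17.1), and figures drawn with matplotlib 3.10.9. A plain limma fit between the groups was tried on simulated data in a separate check, which did not cover the alternative fits. Gene positions and promoter sequences came from RefSeq on GRCm38.p6. Named genes were all 9 genes, up to 4 called genes per pathway list with the largest change (else the lowest p), up to 2 per marker list, and the 3 nearest profiles for each of 2 genes. Fgg and Krt19 of the injury list and Cdkn1c and Nphs1 of the podocyte list also met this rule but are not described. Genes named beyond this rule (Nedd4, Prss8, Furin, Plau, Plg, Cyp11b1, Cyp11b2, Tsc22d3, Fkbp5, Zbtb16, Wnk1, Cul3, Kcnj10, Kcnj16, Atp1b1, Slc12a1, Gata3, Fxyd4) were chosen after their values were seen. The genes and lists were chosen with earlier results of these data known.

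Alternatives fitted were a replicate block on mouse number, leaving out dim genes (25% of genes, by mean), a second quantile normalisation, centring of arrays on medians, eBayes with trend and robust options, weights per array, and leaving out each array in turn.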

Additional observations from a re-analysis of the deposited data

Results flagged for a closer look

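A mouse was picked out where its gap to the nearest mouse of its group, divided by the group's range, passed Dixon's value for 5 samples (0.71). Of 64 groups examined over 32 genes 13 passed, where chance gives about 1 in 20, and 10 of the 13 were db/db 1. The rate of 1 in 20 is for independent groups; here the groups share 10 arrays, and many of the genes were named because they were called without db/db 1, which favours genes in which that mouse stands apart, so the count cannot be read against it. For the genes of the main set that mouse was low in Scnn1a (0.767 of the range), Scnn1b (0.716), Scnn1g (0.793) and Slc12a3 (0.750). It was also low in the calcium buffer gene Calb1 (0.846), Fkbp4 (0.799), Kcne1 (0.844) and Klk1b24 (0.832), and high in the proteases St14 (0.760) and Tmprss4 (0.910). The same mouse had the highest injury and leukocyte markers; their part in these values was not tested.

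The other 3 were single mice: db/m 1 was low in Klk1b27 (0.742), db/db 5 was high in Klk1b5 (0.797), and db/m 5 was low in Tmprss2 (0.785).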

How the results depend on the processing

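The number of the 9 genes higher in db/db depended most on db/db 1. With all arrays it was 1, and it was 0 with the replicate block, 0 with arrays centred on their medians, 6 with array weights and 0 to 6 with 1 array left out (0 without db/m 3, 6 without db/db 1). Without db/db 1 it was 6, and 3 with the replicate block (Scnn1b, Scnn1g and Slc12a3), while the other alternatives gave 5 or 6. With the replicate block the podocyte list had 1 of 7 genes higher with all arrays and 5 of 7 without db/db 1. Same-numbered mice deviated together at an r of -0.0948 to 0.00599 across genes, so the numbers were not taken as pairs. Over all genes, 488 higher and 584 lower became 180 and 213 with the replicate block, 1346 and 1295 with array weights, and 234 to 1127 and 256 to 977 with 1 array left out. Omitting db/db 1, 1127 higher and 977 lower became 548 and 437 with the block and 767 to 1077 and 615 to 873 with 1 further array left out. Centring lowered the share of calls that were higher from 45.5% to 32.6%, and from 53.6% to 41.0% without db/db 1, and moved the median of all genes by -0.07 and -0.04.

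Signs turned where changes were near 0. With all arrays Nedd4l was at -0.02 with centring, -0.02 with array weights and -0.01 without db/db 1 (-0.01 to 0.08 over the fits with 1 array left out), Klk1 at -0.04 with centring, and Kcnj1 at 0.11 with array weights and 0.11 without db/db 1 (-0.26 to 0.11). In the fit without db/db 1 Nedd4l was at 0.02 with quantile normalisation, and between -0.05 and 0.02 with 1 further array left out. The larger change of Scnn1g than of Scnn1b ranged from -0.24 to -0.08 with all arrays and 1 left out, and from -0.27 to -0.21 without db/db 1 and 1 further mouse. The array number limits small changes: the 95% intervals of the 3 uncalled genes without db/db 1 reached 0.14 for Nedd4l, 0.22 for Klk1 and 0.40 for Kcnj1. The cause of these differences was not tested.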
